A study of Drosophila melanogaster with 3 samples.

Results

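Trithorax, the Brahma remodelling complex and the HP1 heterochromatin system keep genes active or silent through chromatin, and 6 of their genes are described here as places in the genome where a GFP-tagged protein was recovered. The genes are trx, brm, osa, Snr1, HP1a (FBgn0003607, also named Su(var)2-5) and Su(var)3-9. They were chosen by name, with earlier results of these data known, as 6 of the 13968 protein-coding genes of the Ensembl BDGP6 annotation. Their counts, set beside the share of all genes or peaks, are therefore a description and not a test. Each gene was taken with 5 kb on either side. A region of the deposited lists belonged to a gene if its summit, the position of highest signal, lay in that stretch. By this rule 19 of the 4934 thresholded peaks and 39 of the 30000 pooled candidate regions belonged to the 6 genes.

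The chromatin came from prepupae of pooled sex, labelled 24 hours, of 1 transgenic Drosophila melanogaster line that stably expresses CG9139 fused at the C-terminus to eGFP. CG9139 encodes Rabex-5, which activates the small GTPase Rab5 on early endosomes. DNA was sheared by sonication to 200 to 800 bp and precipitated with an anti-GFP antibody in 3 biological replicates, which are the only group, so no comparison between conditions was possible. Whole animals were used, so a peak cannot be assigned to a tissue. All replicates were compared by the authors with 1 control alignment, and no untagged line is part of the material analysed here.

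The trithorax protein is a histone H3 lysine 4 methyltransferase that maintains active transcription of developmental genes. The Brahma complex is the fly SWI/SNF nucleosome remodeller. Brm is its ATPase, Snr1 a core subunit related to yeast SNF5, and Osa the large DNA-binding subunit that defines the BAP form of the complex. HP1a encodes heterochromatin protein 1a, which binds methylated histone H3 lysine 9 in heterochromatin, and Su(var)3-9 encodes a methyltransferase that places this mark.

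The lists give the authors' signal, an enrichment over the control alignment that scales with depth. It is printed as a value within a list, never compared between lists. For each replicate a relative signal was formed, which is its signal divided by its median over all thresholded peaks, so that 1 is the level of the median peak. The lists hold no read counts, so the depth behind each value is unknown. Thresholded peaks are those kept by the authors' irreproducible discovery rate (IDR) procedure, and they were the regions of highest signal in the pooled list, without exception.

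Sequences around 7 of the summits are shown. Strong peaks, in introns of osa and trx and near neighbouring genes, come first. The weak peak at the HP1a start site and a trx peak rich in GAGAG follow. Each sequence is read 5′ to 3′ on the plus strand of the Release 6 genome (dm6) from the RefSeq assembly. It reaches 100 bp to each side of the summit. The HP1a window is trimmed where a UTR begins. Windows with a summit in a UTR are not shown, among them that of the strong peak at CG8360, near HP1a. Capitals mark matches, on either strand, to the motifs searched. Those present in the sequences shown were GAGAG, read as CTCTC on the other strand, and TGANTCA.
osa intron, 13934 bp downstream (chr3R:17704316-17704516): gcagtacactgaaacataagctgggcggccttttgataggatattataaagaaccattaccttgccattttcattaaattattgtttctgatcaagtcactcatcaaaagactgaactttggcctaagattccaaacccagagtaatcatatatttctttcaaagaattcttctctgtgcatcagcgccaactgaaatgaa
osa intron, 17721 bp downstream (chr3R:17700529-17700729): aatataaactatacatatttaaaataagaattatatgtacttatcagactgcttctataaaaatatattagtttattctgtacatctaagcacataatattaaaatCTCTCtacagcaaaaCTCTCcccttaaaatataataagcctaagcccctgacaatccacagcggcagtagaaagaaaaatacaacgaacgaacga
trx intron, 8828 bp downstream (chr3R:14277975-14278175): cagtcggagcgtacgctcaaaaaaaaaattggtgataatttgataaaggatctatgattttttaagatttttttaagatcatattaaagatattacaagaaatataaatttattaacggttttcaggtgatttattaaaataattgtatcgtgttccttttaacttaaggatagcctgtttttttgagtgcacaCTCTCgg
between brm and Arl1 (chr3L:15982909-15983109): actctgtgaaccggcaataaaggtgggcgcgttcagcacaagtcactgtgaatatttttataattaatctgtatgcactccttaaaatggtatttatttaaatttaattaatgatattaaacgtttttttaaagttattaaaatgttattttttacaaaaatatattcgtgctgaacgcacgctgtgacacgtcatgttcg
upstream of SLC5A11 (chr2L:8205184-8205384): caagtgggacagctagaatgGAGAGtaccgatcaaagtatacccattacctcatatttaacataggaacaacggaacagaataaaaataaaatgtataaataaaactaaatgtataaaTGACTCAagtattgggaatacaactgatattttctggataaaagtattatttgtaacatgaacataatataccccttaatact
upstream of HP1a (chr2L:8211123-8211310): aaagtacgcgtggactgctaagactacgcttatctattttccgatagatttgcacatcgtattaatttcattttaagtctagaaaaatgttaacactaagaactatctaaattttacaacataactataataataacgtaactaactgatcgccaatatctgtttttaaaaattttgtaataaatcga
trx intron, 7948 bp downstream (chr3R:14278855-14279055): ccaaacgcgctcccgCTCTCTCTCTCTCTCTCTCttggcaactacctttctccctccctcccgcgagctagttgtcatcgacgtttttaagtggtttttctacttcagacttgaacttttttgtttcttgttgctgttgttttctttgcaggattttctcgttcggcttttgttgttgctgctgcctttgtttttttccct

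Of the 6 genes, 4 held at least 1 IDR summit in the gene body or within 5 kb, namely osa with 9, trx with 6, HP1a with 3 and brm with 1. Among all protein-coding genes the share was 37.0%. Snr1 and Su(var)3-9 held none. Pooled candidates gave the same split, with 20 at osa, 15 at trx, 3 at HP1a, 1 at brm and 0 at Snr1 and Su(var)3-9, while 72.5% of all protein-coding genes held at least 1. At osa and trx, 11 and 9 of these candidates lay below the IDR list. At HP1a and brm every pooled candidate was an IDR peak. A gene body summit was found in 2 members, osa and trx, and in 12.1% of all protein-coding genes.

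The long genes held more summits, so the count was also taken per length. osa spans 30.5 kb and its region held 2.22 IDR summits per 10 kb. trx spans 23.5 kb and held 1.79. The HP1a region, around a gene of 1497 bp, held 2.61, and that of brm, a gene of 12.8 kb, held 0.439. The chromosome arms held 0.360 per 10 kb. For pooled candidates the values were 4.93 at osa, 4.47 at trx, 2.61 at HP1a and 0.439 at brm, against 2.19 on the arms. Thus osa, trx and HP1a stood above the arm average in IDR summits per length, and brm stood close to it. As many IDR summits as osa, or more, were found at 59 of the 13968 genes. A count of 6 or more, a number chosen after the values were seen, was reached by osa and trx and by 1.35% of all protein-coding genes.

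osa (FBgn0261885, 3R 17687818 to 17718350, minus strand) held all 9 of its IDR summits inside the gene, with 8 in introns and 1 in the 5′ UTR. Its strongest peak, at 3R 17704228 to 17704627, had a pooled signal of 1177 and ranked 30 of 4934. The summit lay 13934 bp downstream of the start site. The signal was 516, 285 and 382 in replicates 1, 2 and 3, and the relative signal was 6.70, 5.66 and 6.50, or 6.28 ± 0.552 (SD, n = 3). All 3 replicates placed it among their 41 strongest candidates. It was the highest of the 19 peaks. Its SD range overlapped that of the next one, near SLC5A11, although it was the higher of the pair in each replicate.

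The intron that carries this peak, intron 4 of an osa transcript with 16 exons, is 8.07 kb long and held 5 of the 9 summits. The second strongest, at 3R 17700394 to 17700764, lay 17721 bp downstream with a pooled signal of 673 and relative signals of 3.31, 3.38 and 4.14, averaging 3.61 ± 0.457 (SD, n = 3). Another, at 3R 17703488 to 17703639, lay 14819 bp downstream with relative signals of 1.95, 2.14 and 1.59, averaging 1.89 ± 0.281 (SD, n = 3). The replicate summits of these 2 peaks spread over 10 bp and 3 bp, and those of the weaker peak 15773 bp downstream over 276 bp. At that weaker peak the replicate 3 candidate had its summit 15572 bp downstream, where a separate pooled candidate below the IDR list also had its summit. Across the 19 peaks the spread ranged between 3 and 276 bp, with a median of 67 bp. The other summits of the intron were weaker. The one 15773 bp downstream had 0.990 ± 0.427 and the one 11688 bp downstream 0.682 ± 0.111 (SD, n = 3 each).

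Non-coding genes are annotated inside this intron on the opposite strand. The second strongest osa summit lay 112 bp upstream of the start of lncRNA:CR46036 (3R 17700741 to 17701873). The peak 14819 bp downstream lay 164 bp upstream of the start of lncRNA:CR46035 (3R 17703695 to 17705581), and the strongest lay inside that gene, 721 bp from its start. Thus 2 of the 19 member summits were within 200 bp of a non-coding start site, a distance chosen after the values were seen, against 2.94% of all IDR summits. The nearest protein-coding start site to the second strongest summit was that of CG31249, 13558 bp away and outside osa, although the summit lay within osa. The files do not show whether these sites bear on osa or on the non-coding genes.

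The remaining osa summits were closer to the osa start site, with mean relative signals below 1. Relative signals averaged 0.716 ± 0.278 at 7335 bp, 0.636 ± 0.0783 at 3412 bp and 0.878 ± 0.466 at 1065 bp downstream (SD, n = 3 each). The 1065 bp peak had a pooled signal of 168 and ranked 2464 of 4934, the level of the median IDR peak. Its replicates differed 2.90-fold, a range that 7.43% of the IDR peaks listed in all 3 replicates exceeded. The summit nearest to the start site, 211 bp downstream in the 5′ UTR, had 0.310, 0.993 and 0.597 in replicates 1, 2 and 3, averaging 0.633 ± 0.343 (SD, n = 3). Its rank was 13183 in replicate 1 and 2472 in replicate 2. The replicates differed 3.20-fold there, a range that 4.94% of the IDR peaks listed in all 3 replicates exceeded. However, the replicate 1 candidate had its summit 75 bp downstream, nearer to a separate pooled candidate 10 bp downstream that takes the same replicate values. The fold range thus compares candidates whose summits spread over 125 bp. The 3412 bp peak had the lowest signal of the 19, 106, and ranked 4922. The strongest osa candidate left out of the IDR list, 5472 bp downstream, had 97.8 and ranked 5481.

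**Figure D1:**
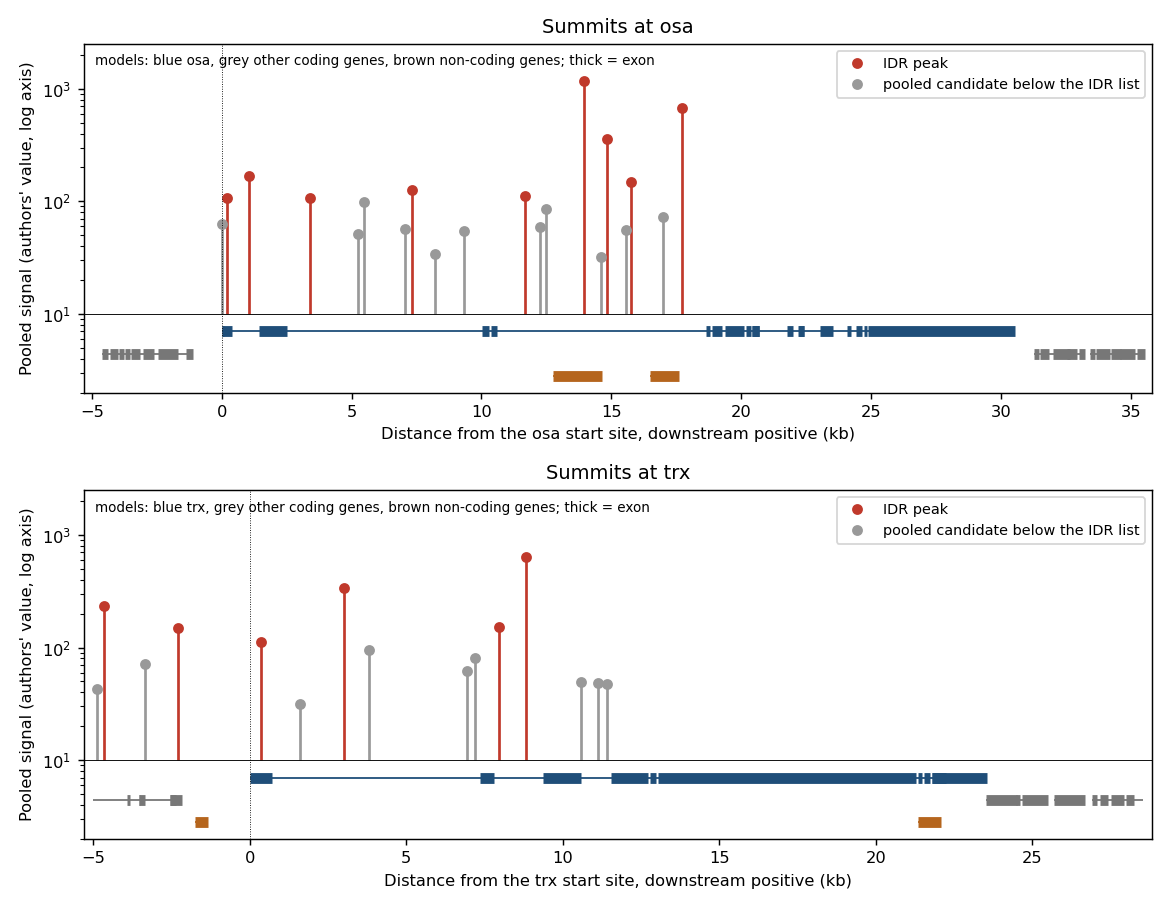
Pooled signal (log axis) of every summit in osa (top) and trx (bottom) with 5 kb on either side, against distance from the gene's start site, with red sticks for IDR peaks, grey sticks for pooled candidates below the IDR list, and gene models beneath. The tall sticks of osa stand in intron 4 (1177 at 13934 bp) and the tallest of trx at 8828 bp (641), while the summits closest to both start sites are short.

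trx (FBgn0003862, 3R 14263358 to 14286903, minus strand) held 4 IDR summits in its body, 3 in introns and 1 in the 5′ UTR, and 2 beyond its 5′ end. The strongest, at 3R 14277878 to 14278244, lay 8828 bp downstream of the start site with a pooled signal of 641 and rank 174. The signal was 228, 204 and 216 in replicates 1, 2 and 3. The relative signal was 2.95, 4.05 and 3.66, or 3.56 ± 0.556 (SD, n = 3). In a trx transcript with 9 exons it lay in the second intron, of 1.55 kb. That intron held a further peak 7948 bp downstream, whose relative signal was 0.998 ± 0.248 (SD, n = 3). Its replicate 1 value, 0.715, is that of a candidate with its summit 8167 bp downstream. A weaker replicate 1 candidate, 7923 bp downstream, had 0.621. Intron numbers and lengths can differ in other trx transcripts.

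The first intron of the same trx transcript, of 6.67 kb, held a peak at 3R 14283766 to 14283978, 3001 bp downstream. Its pooled signal was 339, and its relative signals of 2.21, 1.90 and 1.48 averaged 1.86 ± 0.365 (SD, n = 3). At the trx start site the signal was low. The 5′ UTR summit 361 bp downstream had 0.255, 0.990 and 0.704 in replicates 1, 2 and 3, averaging 0.650 ± 0.371 (SD, n = 3). This 3.88-fold range was the widest of the 19 peaks, and 2.30% of the IDR peaks listed in all replicates had a wider one. Replicate 1 was lowest and replicate 2 highest, as at the osa start site, where the replicate summits spread over 125 bp.

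Below the IDR list, trx held 9 pooled candidates with signals of 31.3 to 94.4 and osa 11 with 31.8 to 97.8. Several overlap an IDR peak or each other and share its replicate candidate, so their recurrence is not given here. The osa candidate closest to the start site, 10 bp downstream, had 62.6 and ranked 9690. A trx candidate 10572 bp downstream, with 49.8, had its summit in a coding exon, where no IDR summit of any member lay.

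The pair of summits beyond the 5′ end of trx belonged by position to red, the divergent neighbour whose start site lies 2168 bp from that of trx. One lay inside red, in its 5′ UTR, and 75 bp upstream of the closest red start site, which is an inner one. Its relative signal was 0.952 ± 0.278, and the other, in a red intron, had 1.31 ± 0.276 (SD, n = 3 each). The second was the member summit nearest to the outer limit of the 5 kb margin, at 4665 bp, with a pooled signal of 232. The next IDR summit outside the trx margin was 66981 bp from the gene, with a signal of 321.

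brm (FBgn0000212, 3L 15970082 to 15982869, minus strand) had a single IDR peak, at 3L 15982887 to 15983138, with a pooled signal of 617 and rank 193. It lay in the 266 bp between the start sites of brm and its divergent neighbour Arl1, which encodes an Arf-like GTPase of the Golgi. The summit was 140 bp upstream of brm and 126 bp upstream of Arl1, so position alone does not assign it to either gene. Summits of the 3 replicates fell within 4 bp of each other. The signal was 377 in replicate 1, 109 in replicate 2 and 118 in replicate 3. The relative signal was 4.89, 2.16 and 2.00, or 3.02 ± 1.62 (SD, n = 3). Replicate 1 stood far above the others, and the mean without it was 2.08. Ranks were 94, 485 and 594, so each replicate still listed it among its 594 strongest candidates.

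The body of brm held no pooled candidate. Replicate 2 listed 4 weak candidates there and another 2 just beyond the 3′ end, and replicate 3 listed 2 beyond the 3′ end, with relative signals of 0.210 to 0.414. None of these overlapped a pooled region. Several genes, CG17026, CG17027 and CG17029 among them, are nested within brm on the opposite strand.

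HP1a (FBgn0003607, 2L 8209626 to 8211122, minus strand) had 3 IDR summits, none in the gene body. The weakest, at 2L 8210995 to 8211424, was the closest to its own start site, 88 bp upstream. Its pooled signal was 110 with rank 4689, and its relative signals of 0.634, 0.625 and 0.529 averaged 0.596 ± 0.0584 (SD, n = 3), the lowest mean of the 19 peaks. It also lay 137 bp from the start of Ssb-c31a, a divergent neighbour 225 bp from HP1a.

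The strong peaks within 5 kb of HP1a stood at other genes. The peak at 2L 8205092 to 8205478 had a pooled signal of 1048 and rank 42, with its summit 152 bp upstream of SLC5A11, a member of a sodium-coupled solute transporter family. It was 4342 bp beyond the 3′ end of HP1a, and its summit also lay in an exon of the non-coding gene asRNA:CR44119. Its relative signals of 6.25, 5.22 and 5.23 averaged 5.57 ± 0.594 (SD, n = 3). The peak at 2L 8212868 to 8213153 had a signal of 731, with its summit 44 bp into the 5′ UTR of CG8360, and averaged 3.85 ± 0.685 (SD, n = 3). The summits of both peaks differed by at most 58 bp between replicates. The density of the HP1a region therefore rests on summits nearest to neighbours for 2 of its 3 peaks. A further pooled candidate with signal 61.7 fell 5002 bp from the gene, just outside the margin.

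Snr1 (FBgn0011715, 3R 5470926 to 5472754, plus strand) held no IDR or pooled summit, and its body held no candidate in any replicate. The nearest IDR summit was 44535 bp away and the nearest pooled candidate 7550 bp. Within the margin, replicates 1 and 2 each listed 1 candidate near the start of RpL35A, a ribosomal protein gene, with relative signals of 2.02 and 1.54 and ranks of 712 and 1078. Replicate 3 listed none there. The pooled list had no region overlapping either candidate, although both ranked high in their replicates. Among each replicate's 4934 strongest candidates, 4.62% in replicate 1, 6.22% in replicate 2 and 2.63% in replicate 3 had no pooled region. The reason was not tested.

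Su(var)3-9 (FBgn0263755, 3R 15259864 to 15263458, minus strand) held 0 summits in each of the lists used, the IDR list, the pooled list and the 3 replicate lists. Its start site is shared with eIF2gamma, which encodes a translation initiation factor subunit and occupies 3R 15257844 to 15263458, so this holds for that start site too. The nearest IDR summit was 27256 bp from the gene and the nearest pooled candidate 12223 bp. The lists end at their weakest of 30000 regions, so weaker binding there was not detectable.

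**Figure D2:**
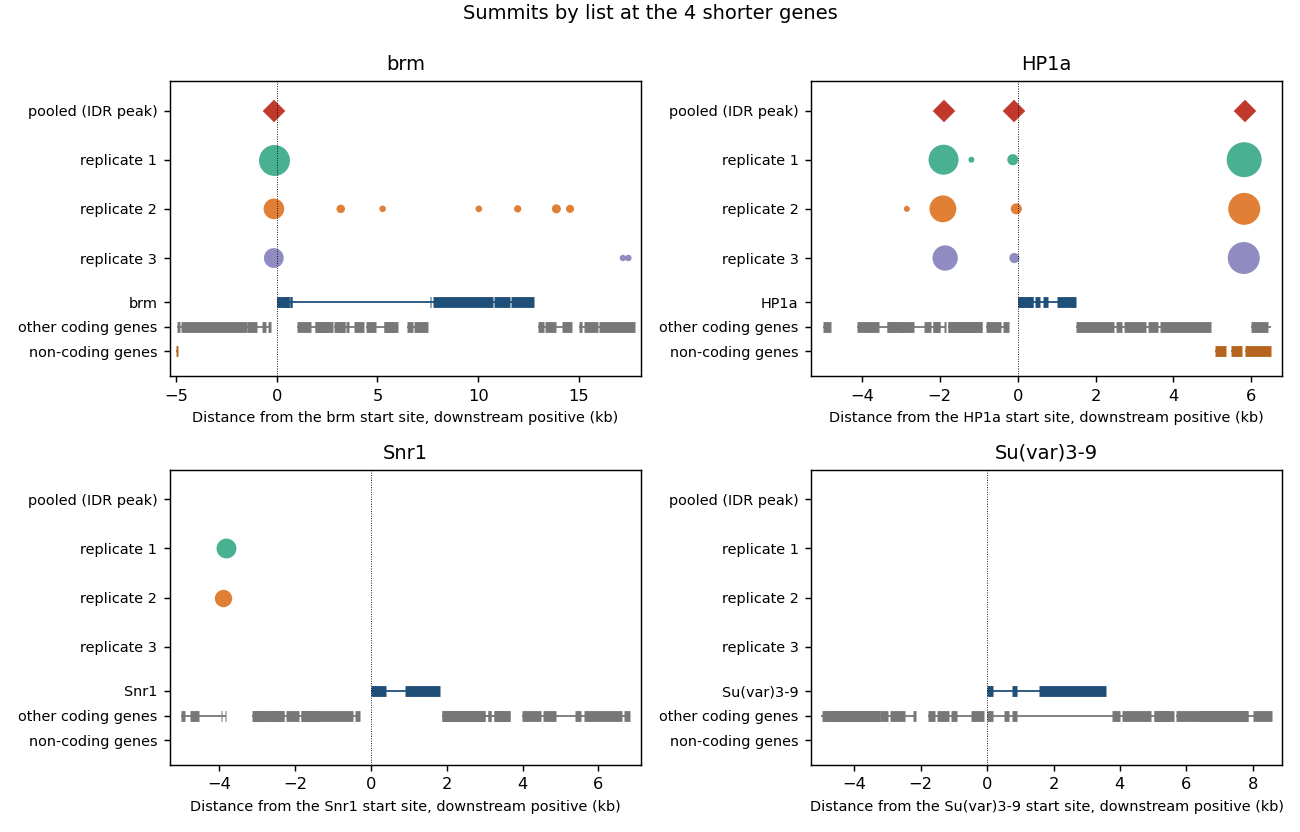
Summits by list at brm, HP1a, Snr1 and Su(var)3-9 against distance from each start site, with red diamonds for IDR peaks and circles for replicate candidates, whose area is proportional to relative signal. The brm circles line up 140 bp upstream in all 3 replicates, Snr1 has circles in replicates 1 and 2 only, and Su(var)3-9 has none.

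Summits within 500 bp of a member's own start site were found at trx, brm, osa and HP1a, or 4 of 6 genes, against 13.1% of all protein-coding genes. At trx, osa and HP1a these were among the weakest peaks of the IDR list, with pooled signals of 108 to 111 and ranks of 4604 to 4806. None of these 3 was among the 4934 strongest candidates of all replicates. The count of 4 was therefore sensitive to which replicates were required. Keeping peaks found among the strongest candidates of both other replicates left trx and brm without replicate 1, and brm alone without replicate 2 or without replicate 3. It was 1 among peaks above the median signal. The share of all protein-coding genes fell too, to 8.49% to 9.11% without a replicate and 7.47% above the median signal. Only the peak shared with Arl1 was kept in every case.

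**Figure D3:**
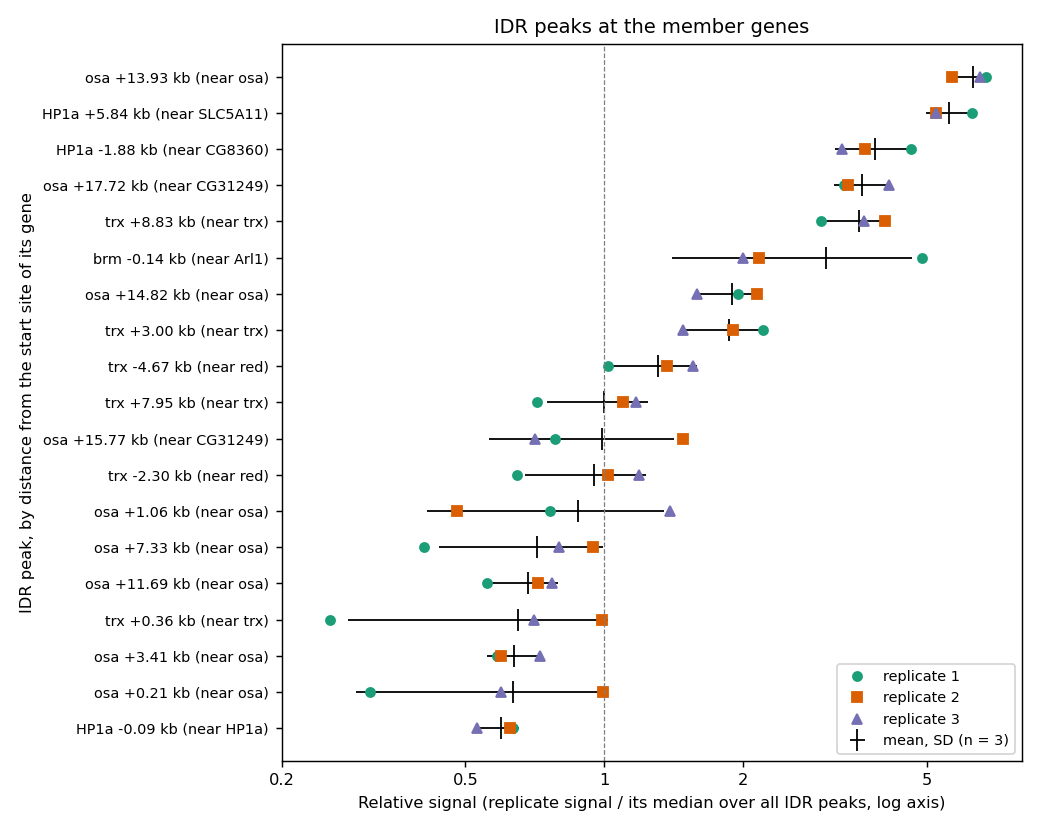
Relative signal (log axis) of the 19 IDR peaks in each replicate, with the mean and SD (n = 3), labelled by distance from the start site of the member gene and by the gene with the nearest start site. The 6 upper peaks average 3.02 to 6.28, and the peaks at the own start sites of trx, osa and HP1a average 0.596 to 0.650.

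Across the 19 peaks the pooled signal ranged between 106 and 1177 with a median of 168, equal to the 168 of all IDR peaks. A signal of 400 or more, a round value chosen after the values were seen, was reached by 6 of the 19, against 10.5% of all IDR peaks. These 6 were 2 in osa, 1 in trx, the brm and Arl1 peak, and the pair near HP1a. Of the 6, the nearest protein-coding start site was that of the member itself for the strongest peaks of osa and trx alone. Over all 19 the member's own start site was the nearest for 12, while it was for 43.6% of all pairs of a summit and a protein-coding gene within 5 kb. More than 5 kb from every protein-coding start site lay 8 of the 19, against 25.4% of all IDR summits. All 8 lay in introns of osa or trx.

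Peaks were ordered by mean relative signal. The SD ranges of adjacent peaks overlapped at every step except between the SLC5A11 peak (5.57) and the CG8360 peak (3.85). These ranges do not use the pairing of peaks within replicates. Some adjacent pairs kept their order in each replicate. The strongest osa peak had 6.70, 5.66 and 6.50, against 6.25, 5.22 and 5.23 at the SLC5A11 peak. In other pairs the order changed, as between the CG8360 peak (4.61, 3.68 and 3.27) and the second strongest osa peak (3.31, 3.38 and 4.14). The median of the 19 means was 0.998, against 0.978 over all IDR peaks. By replicate the median of the 19 was 0.782 in replicate 1, 1.37 in replicate 2 and 1.39 in replicate 3, so replicate 1 was the lowest. All 19 peaks overlapped a candidate in each replicate, as did 96.8% of all IDR peaks, so this does not set the members apart. Among the strongest candidates of all 3 replicates were 12 of the 19 (63.2%), against 58.0% of all IDR peaks, a share near the background. The other 7 were 5 in osa, 1 in trx and 1 at HP1a.

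**Figure D4:**
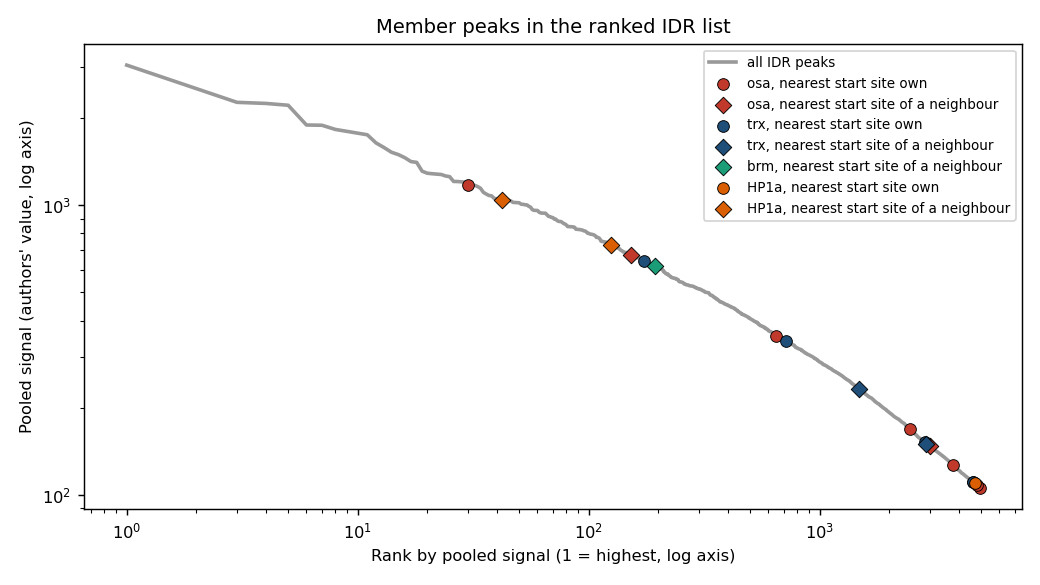
Pooled signal against rank in the IDR list (log axes) for all 4934 peaks (grey line) and for the 19 member peaks (symbols, circles where the nearest start site is the member's own and diamonds where it is a neighbour's). The 6 highest symbols lie between ranks 30 and 193, with 2 circles among them.

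Windows of 201 bp around all 19 summits, of which 7 are printed above in whole or in part, were searched for 6 motifs on both strands. GAGAG, a core element bound by GAGA factor and other proteins, was present in 9 of the 19 windows, against 34.5% of all IDR windows. In windows of 50 bp to each side the count was 4, against 19.3%. With 200 bp to each side it was 11 of 19 (57.9%), against 56.7%, so the members stood near the background at both of these sizes. Matches were densest in peaks of pooled signal 151, 168 and 111, with 8 in the trx window at 7948 bp, 8 in the osa window at 1065 bp and 7 in the trx 5′ UTR window, overlapping matches included. The strongest osa window and the brm window had none. TGANTCA, an AP-1-type element, was present in 1 window, that of SLC5A11, against 4.46% of all IDR windows. TATCGATA, GGTCACAC, CACGTG and CAGGTAG were in 0 of the 19, against 0.872%, 0.892%, 1.91% and 0.831%. The GC content of the member windows had a median of 36.3% with a range of 26.4% to 56.7%, against a median of 38.8% over all IDR windows.

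Other genes of these pathways, from 3 lists without the 6 members, were counted in the same way. Of the other Brahma complex subunits 1 of 9 matched genes had an IDR summit within 500 bp of a start site, Act5C, whose actin has many roles besides that complex and which reached 1.26 ± 0.210 (SD, n = 3). Of 24 other trithorax group genes and partners 5 had such a summit. The GAGA factor gene Trl had 1.05 ± 0.202, the remodeller gene kis 1.05 ± 0.428, the remodelling ATPase gene Ino80 0.749 ± 0.474 and fs(1)h, which encodes a bromodomain protein, 0.799 ± 0.0604 (SD, n = 3 each). Of 21 HP1 family and heterochromatin genes 1 did, mod(mdg4), with 0.604 ± 0.0649 (SD, n = 2). Together 7 of 54 matched genes, or 13.0%, had one, against the 13.1% of all protein-coding genes. Within 5 kb the counts were 5 of 9, 9 of 24 and 12 of 21 genes, against 37.0%. The mediator subunit gene skd, singled out after its value was seen, had the most summits of these genes, 8, and osa had 9.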

How the data were processed

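Regions came from chromatin immunoprecipitation of 3 biological replicates in 1 group. According to text notes the authors deposited, each replicate's alignment and the 3 pooled were compared with 1 control alignment to list 30000 candidate regions on dm6, and an IDR procedure thresholded the pooled list. The sources used here do not name the aligner, the peak caller, the IDR threshold or the control material, so these are not given. The value used is the signal in the lists the authors deposited, which is an enrichment over control. Lists on dm3 were not used, as no genome of that build was at hand.

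Genes came from Ensembl release 115 (BDGP6) and sequence from the RefSeq Release 6 assembly, where 99.9% of 16237 annotated start codons read ATG. Python 3.11.15, numpy 2.4.6, pandas 2.3.3 and matplotlib 3.10.9 were used. A replicate's value at a peak is its overlapping candidate of highest signal (at least 1 bp), so neighbouring peaks can share one. The strongest candidates of a replicate were its top 4934. Motif windows reached 100 bp to each side of the summit, 201 bp in all. HP1a is a RefSeq synonym of the annotated symbol. With 1 group no test was made, and counts stand beside the share of all genes or peaks. Assignment of summits to genes was checked on simulated summits with known positions.

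The members, lists and motifs were chosen with earlier results of these data known. Named were the members, genes nearest to or holding their summits, and up to 4 genes per related list by signal. The symbols dalao and CG7154 were not matched. Whether replicates share animals is not stated beyond their labels.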

Additional observations from a re-analysis of the deposited data

How the results depend on the processing

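Depth per list is unknown, and precision rests on 3 replicates. The member count of 4 within 5 kb was 4 at margins of 2 and 10 kb (25.8% and 52.2% of all protein-coding genes), in peaks above the median signal (24.9%) and without any 1 replicate (27.0% to 28.6%), and 2 in gene bodies only (12.1%). The 19 summits numbered 10 above the median signal and 12 to 15 when a replicate was left out, lowest without replicate 3. The 4 members with a summit within 500 bp of their start sites became 2 at 200 bp, 1 above the median signal and 1 to 2 without a replicate. Of all protein-coding genes 9.38% had a summit within 200 bp, 16.0% within 1000 bp, 7.47% above the median signal and 8.49% to 9.11% without a replicate, with 3269 to 3323 peaks kept. These shares also stand beside the counts of the 3 lists. Of the Brahma list 3 genes had a summit within 1000 bp. The trithorax list gave 3 at 200 bp, 2 above the median signal and 3 to 4 without a replicate. The HP1 list gave 4 at 1000 bp, 0 above the median signal and 0 without any 1 replicate. With any candidate of a replicate accepted, all 19 peaks recurred in all 3, as did 96.8% of all IDR peaks. GAGAG was in 4 windows at 50 bp to each side (19.3% of all IDR windows) and 11 at 200 bp (56.7%), and CACGTG in 1 at 200 bp (4.26%). The median relative signal was 1.08 to 1.14 without a replicate and 0.991 when divided by list medians. The cause of each change was not tested. Fewer peaks were kept above the median signal and without a replicate. No comparison between conditions was possible because there is 1 group, and no paired test between peaks was made.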

Other observations

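The peak between brm and Arl1 lay inside an inverted repeat, noticed after the sequence was seen. An 11 bp arm, GCGTTCAGCAC, began 72 bp before the summit, and its reverse complement, GTGCTGAACGC, ended 78 bp after it (dm6, 3L). Of all IDR windows of 201 bp, 3.00% held an inverted repeat with arms as long or longer. The strongest trx window had arms of 10 bp, mostly a run of A or T, that began 85 bp before and ended 87 bp after its summit, and 7.72% of all IDR windows had arms as long or longer. The strongest osa window had arms of 8 bp, which 42.6% of all IDR windows matched or exceeded. This is a description of the windows, and no role was tested.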
